A study of Mus musculus with 4 samples.

Results

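The genes described here code for the protein parts of the cytosolic ribosome and for the eukaryotic translation initiation factors (eIFs). They were chosen by symbol: Rpl or Rps followed by a number and at most 1 letter, or any symbol starting with Eif except Eif2s3x and Eif2s3y. A gene was taken where at least 1 probe set of the array, a group of short oligonucleotides that reads 1 transcript, was annotated to that gene alone. This gave 88 genes on 224 probe sets, out of 18193 genes on 34945 probe sets that name 1 gene. Of the 88, 43 were ribosomal protein genes on 96 probe sets (22 Rpl genes of the large subunit and 21 Rps genes of the small subunit), and 45 were Eif genes on 128 probe sets.

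The mutant embryos were KRT14-Cre Ctnnb1(Ex3)fl/+, in which Cre recombinase made from a KRT14 promoter, active in basal keratinocytes and other stratified epithelia, acts on 1 of the 2 copies of Ctnnb1, the gene for beta-catenin. Loss of its Ex3 segment is known to leave a beta-catenin protein that escapes degradation. The control embryos were littermates, whose alleles the labels do not give. Dorsal skin was taken at E15.5, the epidermis was parted from the dermis with dispase, and RNA of 2 mutant and 2 control embryos was hybridised to 4 single-colour Affymetrix MOE430 2.0 arrays, 1 array per embryo.

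A ribosome is built from a small and a large subunit, each holding RNA and many different proteins, and it starts translation with the help of the eIFs. In outline, eIF2 carries the initiator tRNA to the small subunit and eIF3 holds that complex together, the eIF4 proteins bind the capped end of the mRNA and unwind it, and eIF5 and eIF5B help the large subunit to join. eIF2 is recharged by an exchange factor, eIF2B, and is switched off by kinases that answer to stress. mRNAs of ribosomal proteins typically begin with a run of pyrimidines and are known to be controlled largely at translation, downstream of the TOR kinase.

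All values are deposited signals, intensities on a linear scale in arbitrary units that had been brought to the same trimmed mean of 150 on every array. The median signal over all probe sets was 30.1 and 28.6 on the mutant arrays and 26.7 and 27.6 on the control arrays. A probe set was tested where it lay above its array's 40th percentile, which lay between 14.4 and 16.1, on at least 2 of the 4 arrays. This kept 203 of the 224 member probe sets and 84 of the 88 genes, and each gene was represented by its brightest tested probe set. The 4 genes with no tested probe set were Rpl3l, Rpl39l, Rps16 and Eif4a3. Among others, Rpl3, Rpl5, Eif1, Eif2s1, Eif3g, Eif4ebp3 and Eif4g1 were not analysed here.

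Markers of basal epidermis were present on all arrays, and 1 of them was lower in mutants. The signal of Krt5 was 5445 and 6231 in mutants and 6544 and 6347 in controls, and that of Trp63 was 2303 and 2423 in mutants and 2276 and 2605 in controls. Krt14 was at 3985 and 4815 in mutants and 5604 and 5542 in controls, lower by 0.35 on the log2 scale (adjusted p = 0.0303, limma). Markers of some other cell types were higher in mutants. All 8 melanocyte markers measured were higher, with a summed signal of 5189 and 6313 in mutants and 1668 and 1675 in controls. Both tested neuronal markers, Tubb3 and Stmn2, were higher as well, with Stmn2 at background in controls. The 4 neuronal and Schwann cell markers with a probe set summed to 845 and 978 in mutants and 31.0 and 31.0 in controls. Most of this sum came from Tubb3, at 765 and 819 in mutants and 25.7 and 17.3 in controls. Dermal fibroblast markers summed to 3671 and 4129 in mutants and 3443 and 4222 in controls, most of it from Dcn, which was higher at 3444 and 3704 in mutants and 2908 and 2899.6 in controls. Of the 7 tested dermal markers 1 was higher and 2, Col5a1 and Col1a2, were lower, with a median log2 fold change of -1.17. Of 7 tested markers of endothelial, immune, red blood and skeletal muscle cells, 0 passed (limma, and 1 at an unadjusted p under 0.05). Krt10, a keratin of the differentiated layers, stood at 1027 and 835 in mutants and 10965 and 11014 in controls. The part of these shifts in the results below was not tested.

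A smaller share of the ribosomal protein genes than of the Eif genes was called, and both shares lay below that of all tested genes. Of 40 tested ribosomal protein genes, 1 was higher, 5 were lower and 34 did not pass an adjusted p of 0.05 (limma, Benjamini-Hochberg over all 28434 tested probe sets). Of 44 tested Eif genes, 12 were higher, 5 were lower and 27 did not pass. Across all 12469 tested genes 45.1% were called, 20.6% as higher and 24.5% as lower, beside 15% of the ribosomal protein genes and 38.6% of the Eif genes. The median log2 fold change, mutant minus control, was -0.06 for ribosomal protein genes, 0.16 for Eif genes and -0.06 for all tested genes. Whether these groups differ from each other or from all genes was not tested. In bulk tissue, fewer cells of a type and less RNA per cell cannot be told apart.

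The raw order of the arrays was also counted. Both mutant values lay above both control values in 2 ribosomal protein genes and 25 Eif genes, against 34.4% of all tested genes. Both lay below in 14 ribosomal protein genes and 11 Eif genes, against 41% of all tested genes. Among probe sets, 2 of 88 ribosomal protein probe sets were higher and 10 lower, and 27 of 115 Eif probe sets were higher and 13 lower, with a background of 18.9% higher and 20.5% lower. By the brightest probe set of each gene, no called ribosomal protein gene differed by 2-fold or more, and 3 Eif genes did: Eif2b4, Eif2ak2 and Eif2ak4. Among tested probe sets, 1 of 88 for ribosomal protein genes, which reads Rpl22, and 12 of 115 for Eif genes differed by over 2-fold. Over all features, 6370 of 28434 tested probe sets did, as did 2903 of 12469 genes by their brightest probe set.

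**Figure D1:**
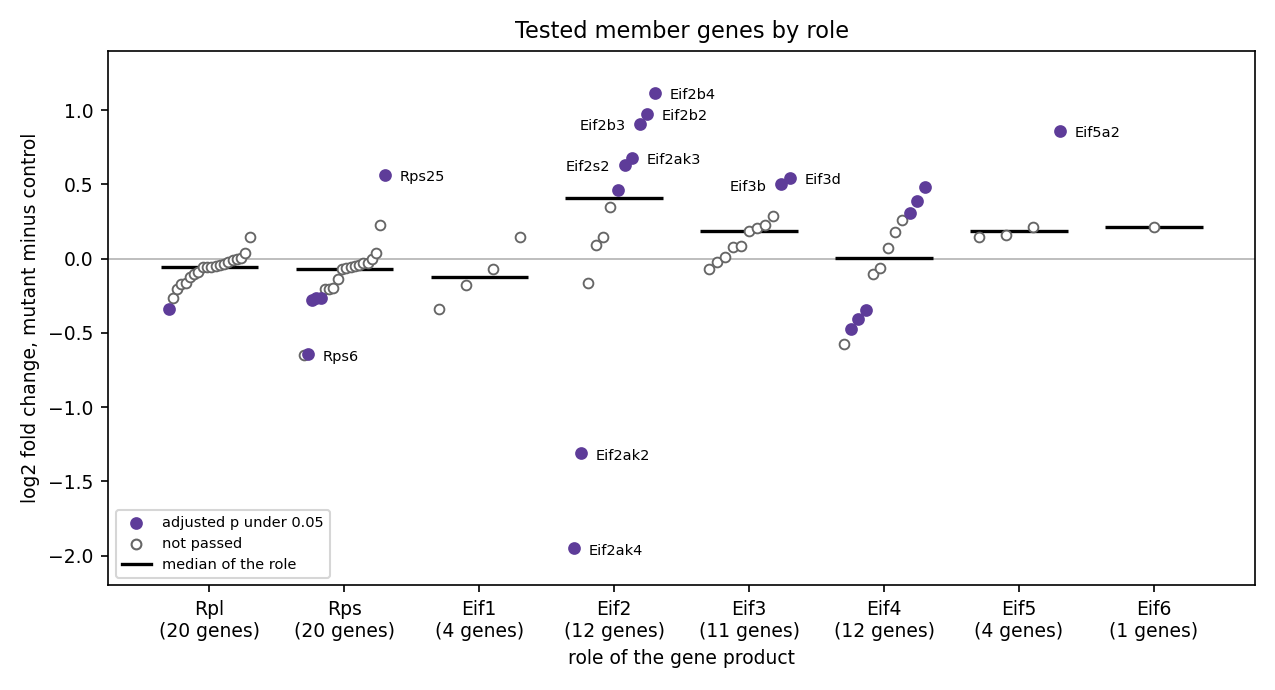
Log2 fold change (mutant minus control) of each tested gene, with genes sorted by role along the horizontal axis. Filled points passed an adjusted p of 0.05, open points did not, and bars mark the median of each role. Most ribosomal protein genes lie close to 0, and the widest spread, from -1.95 to 1.12, is among the 12 Eif2 genes.

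At an unadjusted p under 0.05 (limma), 8 of 40 ribosomal protein genes and 23 of 44 Eif genes passed, against 6681 of all 12469 tested genes. Without the intensity trend of the fit, 0 ribosomal protein genes were called, and 7 Eif genes were higher and 2 lower. For this and the other alternatives, the share of all tested genes called is not given here. The counts also moved with scaling and with single arrays. With cyclic loess scaling 18 Eif genes were higher and 4 lower, and with either quantile or cyclic loess scaling 2 ribosomal protein genes were higher and 5 lower. The count of lower ribosomal protein genes was 2 without control array 1, 2 without control array 2 and 1 without mutant array 1. The count of lower Eif genes was 3 without control array 1 and 2 without control array 2.

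Ribosomal protein genes were among the brightest on the arrays, and most of them differed by less than the spread between replicates. Of the 40 tested genes, 30 had a probe set in the top 1% of all tested signals, against 6 of the 44 Eif genes. Rpl38, a large-subunit protein known for a role in patterning of the mouse skeleton, had signals of 8948 and 10337 in mutants and 9914 and 9319 in controls. The groups overlapped, and the 95% interval of its log2 fold change ran from -0.22 to 0.22. Rps29, a small-subunit protein, had signals of 10400.0 and 10791 in mutants and 11276 and 9996 in controls, which also overlapped, with an interval from -0.20 to 0.20. Rpl11, which outside the ribosome can bind and hold back Mdm2, the main inhibitor of p53, had signals of 4962 and 5693 in mutants and 6107 and 5353 in controls, with an interval from -0.34 to 0.13.

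The ribosomal protein gene that rose was Rps25, a small-subunit protein needed by some viral internal ribosome entry sites. Its signal was 579 and 556 in mutants and 423 and 348 in controls. The groups did not overlap, and the log2 fold change was 0.57 ± 0.12 (SE, adjusted p = 0.00832, limma). It was read by a single tested probe set, whose signal rank among tested probe sets was 83.2%. Of the 40 ribosomal protein genes, 30 lay in the top 1%. The call of Rps25 was lost without the intensity trend (adjusted p = 0.0653, limma).

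The largest fall among the called genes was in Rps6, the small-subunit protein that S6 kinases phosphorylate. Its signal was 459 and 486 in mutants and 649 and 840.3 in controls, without overlap. The log2 fold change was -0.64 ± 0.14 (SE, adjusted p = 0.00724, limma), or 1.56-fold lower. It came again from a single tested probe set dimmer than most of the family, at a signal rank of 86.8%. The call was lost without the intensity trend (adjusted p = 0.067, limma). Rps27 had a fitted change of the same size, -0.65 ± 0.29 (SE), but did not pass (adjusted p = 0.114, limma). Its signal was 80.5 and 69.4 in mutants and 85.1 and 161 in controls, and without control array 1 it passed at -1.10 (adjusted p = 0.00879, limma).

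Another 4 ribosomal protein genes fell by small amounts. Rpl37, a zinc-binding protein of the large subunit, had signals of 749 and 846 in mutants and 1068 and 949 in controls, and fell by 0.34 on the log2 scale. Rps7 had signals of 6544 and 7273 in mutants and 8390.3 and 8223 in controls, and fell by 0.27. Rps19, whose human counterpart is mutated in Diamond-Blackfan anaemia, had signals of 4994 and 5416 in mutants and 6707 and 5947 in controls, and fell by 0.28. In each of these genes the mutant arrays lay below both control arrays. Rps27l, a p53-responsive relative of Rps27, had signals of 3190.1 and 3426 in mutants and 3863 and 4069 in controls, and fell by 0.26.

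None of these 4 calls held on every set of 3 arrays, or without the intensity trend (adjusted p from 0.157 for Rpl37 to 0.203 for Rps19). Without control array 1 the adjusted p was 0.202 for Rpl37 (log2 fold change -0.25), 0.169 for Rps7 (-0.25), 0.269 for Rps19 (-0.19) and 0.0993 for Rps27l (-0.30). Without control array 2 it was 0.237 for Rps7 (-0.21), 0.0539 for Rps19 (-0.37) and 0.195 for Rps27l (-0.22). Without mutant array 1 it was 0.162 for Rpl37 (-0.25), 0.141 for Rps7 (-0.19), 0.145 for Rps19 (-0.22) and 0.14 for Rps27l (-0.21). All 4 values kept their sign on every set of 3 arrays.

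Most ribosomal protein genes also differed one way between replicate arrays. Of the 40, 33 were higher in mutant 2 than in mutant 1, by a median of 0.15 on the log2 scale, and 34 were higher in control 1 than in control 2, by a median of 0.09. Over all tested genes, 6536 of 12469 were higher in mutant 2 than in mutant 1, by a median of 0.01. Against the mean of the controls, the median of the 40 genes was -0.15 in mutant 1 and 0.01 in mutant 2, and 0.04 in control 1 and -0.04 in control 2. The gap between the mutant arrays was therefore larger than the median difference between the groups. Of the 44 Eif genes, 37 were likewise higher in mutant 2 than in mutant 1, by a median of 0.13, yet their median lay above the mean of the controls in both, at 0.07 in mutant 1 and 0.24 in mutant 2.

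**Figure D2:**
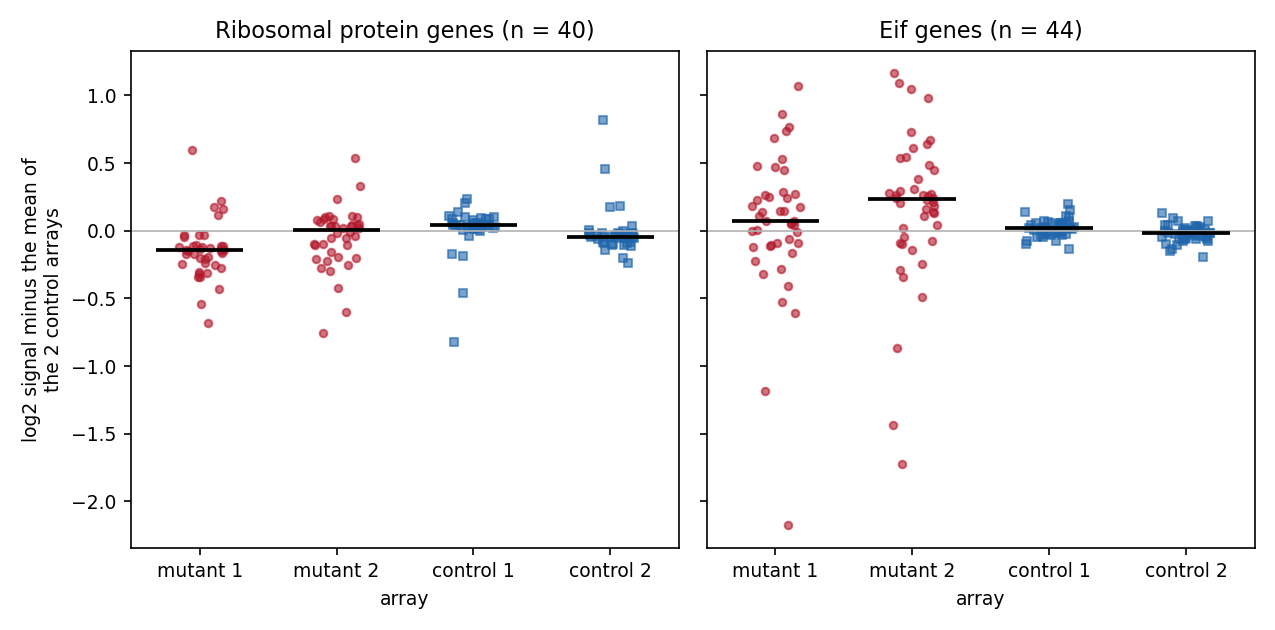
Log2 signal of each gene on each array minus the mean of the 2 control arrays, for the 40 ribosomal protein genes and the 44 Eif genes. Circles are mutant arrays, squares are control arrays, and black bars are medians. The ribosomal protein medians of the mutant arrays are -0.15 and 0.01, and those of the Eif genes are 0.07 and 0.24.

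Brightness was not evenly shared between the gene families, so the counts were also split by it. Of the 88 ribosomal protein probe sets, 66 lay in the top 5% of tested signals, where 1 was higher, 8 were lower and 57 did not pass. Of the 38 Eif probe sets in the top 5%, 8 were higher, 1 was lower and 29 did not pass. Outside the top 5%, 1 of 22 ribosomal protein probe sets was higher and 2 were lower, and 19 of 77 Eif probe sets were higher and 12 lower. Over all tested probe sets, 18.9% were higher and 20.5% lower, and this background was not split by brightness. Whether the brightest spots were saturated was not tested.

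The start of the transcript is shown because the pyrimidine run at that place is the element through which TOR is known to act on ribosomal protein mRNAs. The sequences are RefSeq's, on build GRCm38.p6, from 15 bases before to 15 bases from the annotated start, read on the gene's own strand. Capitals mark stretches of at least 6 C or T bases within 10 bases either side of the start. Where a run goes on beyond these 10 bases, the rest of it is in lower case.
Rpl35 (chr2:39005117-39005146, minus strand): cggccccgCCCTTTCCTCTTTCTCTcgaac
Rpl7a (chr2:26910792-26910821, plus strand): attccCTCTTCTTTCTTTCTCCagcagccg
Rps18 (chr17:33955651-33955680, minus strand): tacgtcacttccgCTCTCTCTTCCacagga
Rps10 (chr17:27635230-27635259, minus strand): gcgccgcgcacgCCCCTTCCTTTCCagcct
Eif3f (chr7:108934400-108934429, plus strand): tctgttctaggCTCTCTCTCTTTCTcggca
Eif2b5 (chr16:20498802-20498831, plus strand): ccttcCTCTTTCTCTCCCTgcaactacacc
Rpl37 (chr15:5116598-5116627, plus strand): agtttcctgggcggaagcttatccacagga
Rps7 (chr12:28635939-28635968, minus strand): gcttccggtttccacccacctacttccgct
Eif4b (chr15:102073758-102073787, plus strand): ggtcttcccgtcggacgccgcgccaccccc
Eif2s2 (chr2:154892892-154892921, minus strand): cacgtaaggttggctttactgtacgcctgc

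A promoter entry was matched for 73 of the 88 genes. A run of this kind stood at the start of 21 of 37 ribosomal protein genes (56.8%) and 6 of 36 Eif genes (16.7%), against 23.0% of 27025 genes with an entry. It was present in Rpl35, Rpl7a, Rps18 and Rps10, none of which passed by its brightest probe set, and in Eif2b5, which was higher in mutants. It was absent from this window in Rpl37 and Rps7, which were lower, and in Eif2s2, which was higher. The genes shown are examples, not all called genes are among them, and whether the run goes with a call was not tested. The match describes these letters only, and annotated starts can lie some bases away from the used one.

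Rpl22, a large-subunit protein with a close copy in Rpl22l1, was read differently by its 3 probe sets. The brightest had signals of 7128 and 7914 in mutants and 8754 and 8199.8 in controls, and did not pass (log2 fold change -0.17, adjusted p = 0.153, limma). The next had signals of 5208 and 5875 in mutants and 7143 and 6690 in controls, and was lower by 0.32 on the log2 scale (adjusted p = 0.0247, limma). The third had signals of 1005 and 950.3 in mutants and 2345 and 2463 in controls, or 2.46-fold lower (adjusted p = 2.35e-05, limma). Mutant arrays lay below control arrays in all 3, but the size ran from -0.17 to -1.30. Rpl22l1 itself, whose symbol lies outside the rule, did not pass (log2 fold change -0.15, adjusted p = 0.184, limma).

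Such disagreement was common among members with several probe sets. In 51 genes, 2 or more probe sets were tested. Calls of opposite sign occurred in 1 of them, Eif2d, a factor that can bring initiator tRNA to the ribosome without eIF2. One of its 4 probe sets was higher by 0.58 and another lower by 0.78 on the log2 scale, while the brightest did not pass. Of the 23 called genes, 12 had another tested probe set, and in 10 of these at least 1 did not pass. Conversely, 10 genes that did not pass by their brightest probe set had another that did, among them Rpl13a, Rps10 and Rps24, named after their values were seen. Probe sets of ribosomal protein genes can also read processed pseudogenes or near-identical copies, and the signals cannot tell these apart.

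**Figure D3:**
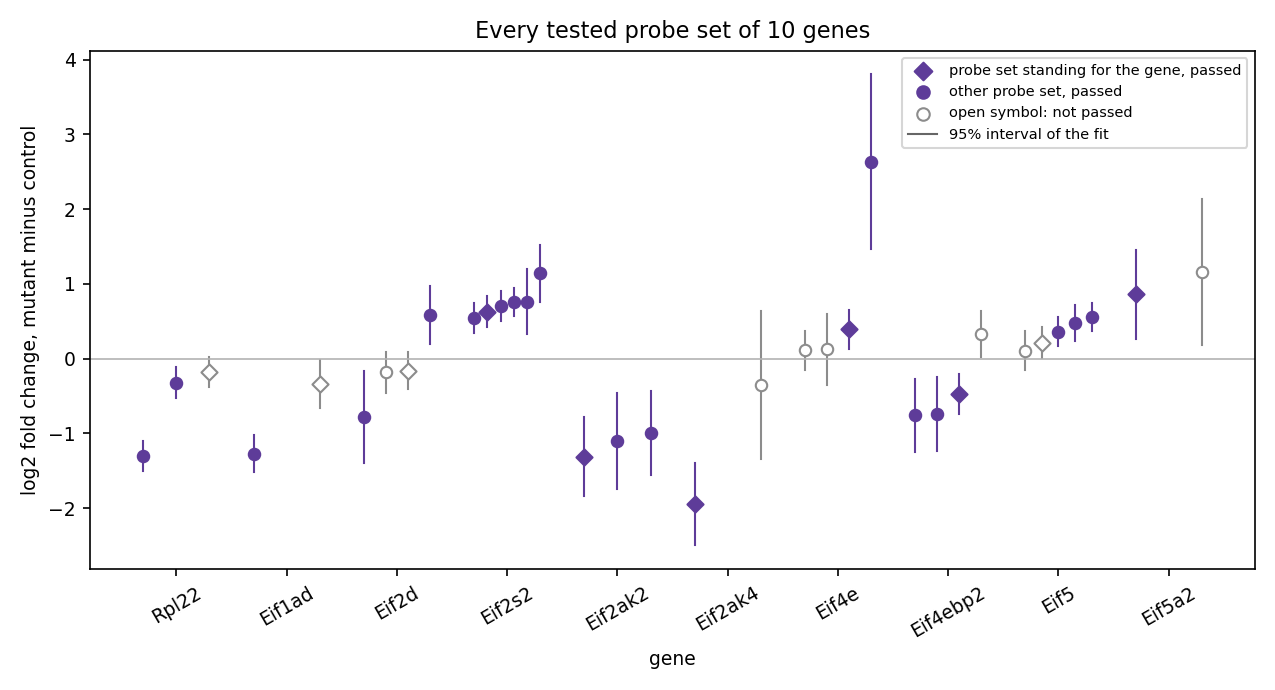
Log2 fold change (mutant minus control) of every tested probe set of 10 genes, chosen after their values were seen to show agreement and disagreement. Diamonds are the probe sets that represent the genes, circles are the others, filled symbols passed an adjusted p of 0.05, and lines are 95% intervals of the fit. All 6 probe sets of Eif2s2 lie above 0 and all 3 of Eif2ak2 below 0, while those of Eif2d lie on both sides.

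The largest rises among the Eif genes were those of Eif2b4, Eif2b2 and Eif2b3, subunits of the eIF2B exchange factor. It is the complex that returns eIF2 to its active, GTP-bound form, and its subunits alpha to epsilon are coded by Eif2b1 to Eif2b5. Of its 5 genes, 4 were higher and 1 did not pass, with a median log2 fold change of 0.91. In all 5, both mutant arrays lay above both control arrays. Of all tested genes, 20.6% were called as higher, and 34.4% had both mutant arrays above both control arrays. Eif2b4 (delta subunit) had signals of 812 and 867 in mutants and 392 and 382 in controls, a log2 fold change of 1.12 ± 0.10 (SE, adjusted p = 9.26e-05, limma). Eif2b2 (beta subunit) had signals of 872 and 1022 in mutants and 478 and 482 in controls, a log2 fold change of 0.98 ± 0.11 (SE, adjusted p = 0.000324, limma).

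The subunits that carry out the exchange also rose. Eif2b3 (gamma subunit) had signals of 500.0 and 606 in mutants and 322 and 267 in controls, with a log2 fold change of 0.91 ± 0.14 (SE, adjusted p = 0.00181, limma). Eif2b5 (epsilon, the catalytic subunit) had signals of 491 and 627 in mutants and 419 and 386 in controls, with a log2 fold change of 0.46 ± 0.14 (SE, adjusted p = 0.0293, limma). Its call was lost without control array 1 (0.52, adjusted p = 0.0607), without control array 2 (0.40, adjusted p = 0.121) and without mutant array 2 (0.29, adjusted p = 0.144), and without the intensity trend (adjusted p = 0.126). Eif2b1 (alpha, a regulatory subunit) had signals of 543 and 628 in mutants and 525 and 529 in controls, did not pass (adjusted p = 0.315, limma), and had an interval from -0.10 to 0.40 on the log2 scale. Only Eif2b2 among the 5 had a second tested probe set. Of its 3 probe sets 2 were higher, and the third, at 0.44, had an adjusted p of 0.051.

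Eif2s2, the beta subunit of eIF2 itself, rose together with its exchange factor. The signal of its brightest probe set was 4777 and 5472 in mutants and 3306 and 3302 in controls, a log2 fold change of 0.63 ± 0.09 (SE, adjusted p = 0.00124, limma). All 6 of its tested probe sets were higher, by 0.54 to 1.14 on the log2 scale. It was the single gene of the eIF2 complex analysed here. Eif2a, a separate factor that shares its name with the alpha subunit in common usage, did not pass (log2 fold change 0.09, adjusted p = 0.547, limma).

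Promoters of 4 of the 5 eIF2B genes were available, and they are shown because 3 of these genes, Eif2b2, Eif2b4 and Eif2b5, were higher in mutants. Each runs from 120 bases before to 15 bases from the annotated start in RefSeq, build GRCm38.p6, on the gene's own strand. Capitals mark the letters CGGAAG, the core of sites bound by ETS-family factors, searched on both strands.
Eif2b2 (chr12:85219361-85219495, plus strand): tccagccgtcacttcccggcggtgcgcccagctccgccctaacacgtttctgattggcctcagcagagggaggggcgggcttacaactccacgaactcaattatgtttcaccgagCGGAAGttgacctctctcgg
Eif2b4 (chr5:31193125-31193259, minus strand): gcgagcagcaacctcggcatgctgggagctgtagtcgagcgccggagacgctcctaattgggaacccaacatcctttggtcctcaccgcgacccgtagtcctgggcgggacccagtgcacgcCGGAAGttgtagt
Eif2b5 (chr16:20498697-20498831, plus strand): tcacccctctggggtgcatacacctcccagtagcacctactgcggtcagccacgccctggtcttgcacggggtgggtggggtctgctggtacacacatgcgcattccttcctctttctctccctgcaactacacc
Eif2b1 (chr5:124579117-124579251, minus strand): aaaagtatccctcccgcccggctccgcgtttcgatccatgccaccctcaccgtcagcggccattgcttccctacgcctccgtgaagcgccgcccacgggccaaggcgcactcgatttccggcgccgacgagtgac

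Over the full window of 300 bases, 250 before the start and 50 from it, CGGAAG stood in 2 of these 4 promoters, Eif2b2 and Eif2b4. It stood in a promoter of 61.1% of 36 Eif genes and 73.0% of 37 ribosomal protein genes, against 18.8% of all genes. The letters CACGTG, the E-box bound by Myc and related factors, stood in 0 of the 4 eIF2B promoters, and in a promoter of 25% of Eif genes, 10.8% of ribosomal protein genes and 8.09% of all genes. The letters CTTTGA, the core bound by TCF and LEF factors, the DNA-binding partners of beta-catenin, stood in a promoter of 5.56% of Eif genes and 5.41% of ribosomal protein genes, against 18.2% of all genes. All were searched on both strands and without matching for base composition.

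**Figure D4:**
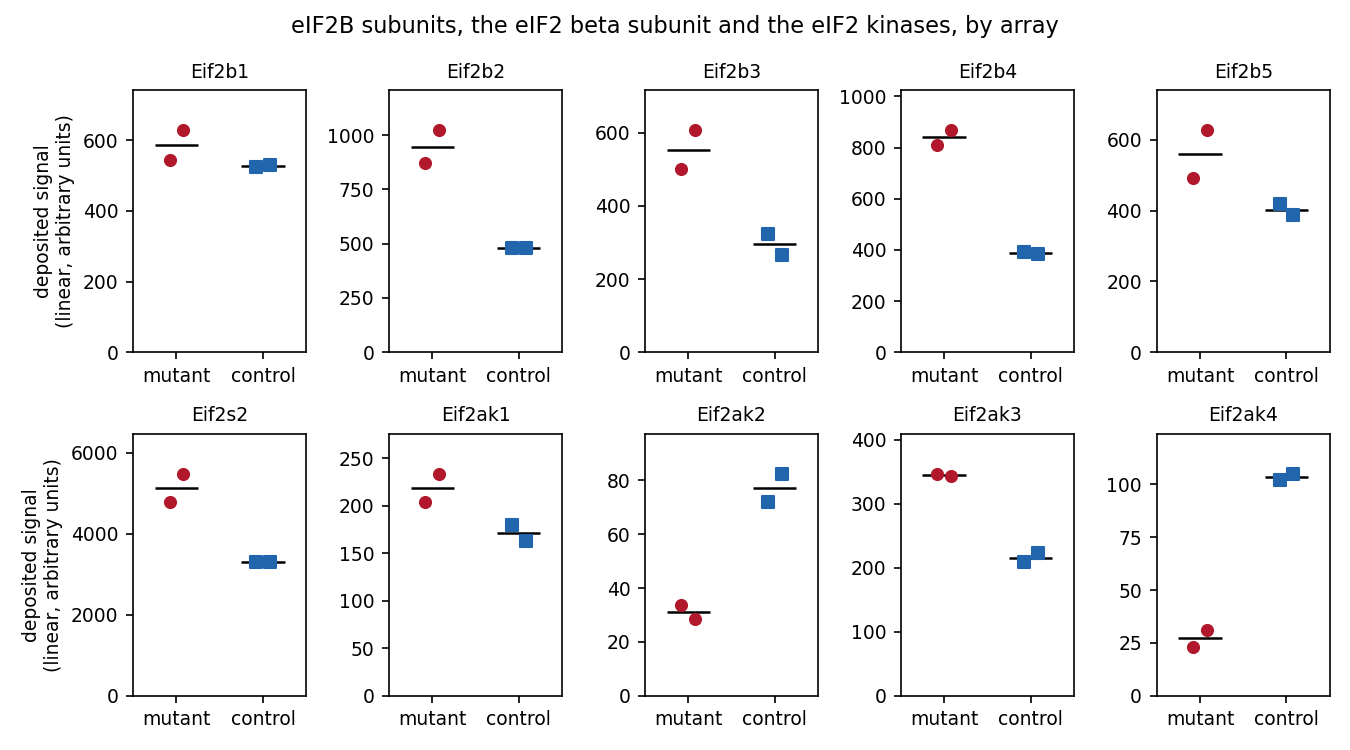
Deposited signal (linear, arbitrary units) of the 5 eIF2B genes, Eif2s2 and the 4 eIF2 kinase genes on each array, with mutants on the left and controls on the right of each panel. Circles and squares are single arrays, bars are means of 2 arrays, and each vertical axis starts at 0. All 5 eIF2B genes sit higher in mutants, and Eif2ak2 and Eif2ak4 sit lower.

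The kinases that phosphorylate eIF2 and so block its exchange went in both directions. Of the 4 genes, 1 was higher, 2 were lower and 1 did not pass, beside 20.6% higher and 24.5% lower of all tested genes. Eif2ak4, which codes for GCN2, the kinase that senses uncharged tRNA, had signals of 22.9 and 31.3 in mutants and 102 and 105 in controls. The groups were well apart, and it was 3.87-fold lower, with a log2 fold change of -1.95 ± 0.24 (SE, adjusted p = 0.000494, limma). A second, dimmer probe set of Eif2ak4 had signals of 13 and 20.4 in mutants and 19.2 and 22.5 in controls, which overlapped, and it did not pass (log2 fold change -0.35, adjusted p = 0.547, limma).

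Eif2ak2, which codes for PKR, the kinase that senses double-stranded RNA and is induced by interferon, had signals of 33.8 and 28.5 in mutants and 72.0 and 82.4 in controls. It was 2.48-fold lower, with a log2 fold change of -1.31 ± 0.23 (SE, adjusted p = 0.00309, limma), and all 3 of its probe sets were lower. Eif2ak3, which codes for PERK, the kinase of the endoplasmic reticulum, had signals of 346 and 343 in mutants and 209 and 222 in controls. It was 1.6-fold higher, with a log2 fold change of 0.68 ± 0.11 (SE, adjusted p = 0.00251, limma). Eif2ak1, which codes for HRI, the kinase regulated by haem, had signals of 204 and 234 in mutants and 179.9 and 163 in controls, and did not pass (log2 fold change 0.35, adjusted p = 0.0783, limma).

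Genes known to respond downstream of these kinases, in what is called the integrated stress response, were set beside them. Of 13 tested, 6 were higher, 3 were lower and 4 did not pass, beside 20.6% higher and 24.5% lower of all tested genes. The 13 had a median log2 fold change of 0.21. The 3 lower were 1 without control array 2, and the 6 higher were 2 without the intensity trend. Chac1, a glutathione-degrading enzyme, had signals of 378 and 464 in mutants and 18.1 and 6.67 in controls, a log2 fold change of 5.25 ± 0.42 (SE, adjusted p = 5.67e-05, limma), with control array 2 below its 40th percentile; over the alternatives its value ran from 3.97 to 5.97. Psat1, an enzyme of serine synthesis, had signals of 798 and 676 in mutants and 2711 and 2914 in controls, 3.83-fold lower (adjusted p = 8.40e-06, limma). Members of the list thus lay far apart on both sides of 0.

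Other members of that list, named after their values were seen, were more moderate. Atf4, the transcription factor whose mRNA is translated when eIF2 is phosphorylated, had signals of 1541 and 1373 in mutants and 1041 and 875 in controls (log2 fold change 0.61, adjusted p = 0.00442, limma). Ppp1r15a, which codes for GADD34, a phosphatase subunit that reverses the phosphorylation, had signals of 468 and 451 in mutants and 175 and 285 in controls (log2 fold change 1.04, adjusted p = 0.00592, limma). Ddit3, which codes for CHOP, had signals of 68.6 and 56.1 in mutants and 69.1 and 66.4 in controls, and did not pass (adjusted p = 0.65, limma). Phosphorylation itself is not read by an RNA array.

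Among the genes of eIF3, the large scaffold that joins the small subunit to the mRNA, 2 of 11 tested were higher, 0 were lower and 9 did not pass, with a median log2 fold change of 0.19. At an unadjusted p under 0.05 (limma), 4 passed, all of them higher. Across all tested genes, 20.6% were called as higher and 24.5% as lower, and 6681 of 12469 passed unadjusted. Eif3d, which can itself bind the cap of some mRNAs, had signals of 2217 and 2435 in mutants and 1585 and 1607 in controls (0.54 ± 0.09, SE, adjusted p = 0.00216, limma). Eif3b, a core scaffold subunit, had signals of 1485 and 1585 in mutants and 1098 and 1072 in controls (0.50 ± 0.09, SE, adjusted p = 0.00315, limma). Both were well separated from the controls, and each was read by a single probe set. Without the intensity trend the adjusted p of Eif3b was 0.0505.

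The other tested eIF3 genes spread around smaller values. Eif3a, the largest core subunit, had signals of 4706 and 4851 in mutants and 4311 and 3977 in controls, without overlap, and did not pass (log2 fold change 0.21, adjusted p = 0.0826, limma). Eif3c, another core subunit, Eif3i and Eif3l also had both mutant arrays above both control arrays without passing, at 0.22, 0.19 and 0.29 on the log2 scale. Eif3e, Eif3f, Eif3h, Eif3k and Eif3m overlapped between groups, with values from -0.07 to 0.09. Eif3h, whose brightest probe set gave -0.02, had a dim second probe set at or below background on both control arrays and at least 1.61-fold higher in mutants (adjusted p = 0.0461, limma). Such a bound sets the brighter group's mean against the 40th percentile, or the measured signal where it is higher, on each array of the dim group.

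Among the eIF4 genes, Eif4e was higher in mutants, and the repressor genes Eif4ebp1 and Eif4ebp2 were lower. Eif4enif1 and Eif4e2, described below, were also higher. Of 12 tested eIF4 genes, 3 were higher, 3 were lower and 6 did not pass, with a median log2 fold change of 0.00. The shares of all tested genes were 20.6% higher and 24.5% lower. Eif4e, the protein that binds the mRNA cap, had signals of 1574 and 1933 in mutants and 1298 and 1362 in controls (0.39 ± 0.11, SE, adjusted p = 0.0276, limma). Eif4ebp2, a repressor that holds eIF4E until TOR phosphorylates it, had signals of 637 and 765 in mutants and 940.4 and 999 in controls (-0.47 ± 0.11, SE, adjusted p = 0.0131, limma). Eif4ebp1, its better studied relative, had signals of 197 and 176 in mutants and 253 and 240.0 in controls (-0.41 ± 0.13, SE, adjusted p = 0.0375, limma). Groups did not overlap in any of these genes.

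Several of these calls were sensitive to single arrays. That of Eif4e was lost without control array 1 (0.36, adjusted p = 0.12), without control array 2 (0.43, adjusted p = 0.0703) and without mutant array 2 (0.24, adjusted p = 0.126). That of Eif4ebp1 was lost without control array 1 (-0.37, adjusted p = 0.151), without control array 2 (-0.44, adjusted p = 0.0877) and without mutant array 2 (-0.32, adjusted p = 0.151), and with quantile (adjusted p = 0.0533) or cyclic loess scaling (adjusted p = 0.071). That of Eif4ebp2 was lost without control array 2 (-0.43, adjusted p = 0.0681) and without mutant array 1 (-0.34, adjusted p = 0.0579). Without the intensity trend all 3 were lost, with an adjusted p of 0.144 for Eif4e, 0.0949 for Eif4ebp1 and 0.0914 for Eif4ebp2.

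The probe sets of these genes differed in size. Of 4 probe sets of Eif4e, 2 were higher, and 2 overlapped between groups at 0.11 and 0.12. One of the higher probe sets was at background on both control arrays and was at least 2.85-fold higher in mutants (adjusted p = 0.00473, limma). Of 4 probe sets of Eif4ebp2, 3 were lower and 1 had a value of 0.33 with an adjusted p of 0.0867. Of 3 probe sets of Eif4ebp1, 2 were lower, by 0.41 and 0.81.

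Other cap-binding genes were measured as well. Eif4enif1, which carries eIF4E into the nucleus, had signals of 678 and 682 in mutants and 463 and 512 in controls (0.48 ± 0.10, SE, adjusted p = 0.00724, limma), a call lost without the intensity trend (adjusted p = 0.0604). Eif4e2, a cap-binding relative that acts mainly in repression, had signals of 709 and 788 in mutants and 604 and 605 in controls (0.31 ± 0.10, SE, adjusted p = 0.0422, limma). The call of Eif4e2 was lost without control array 1 (0.30, adjusted p = 0.134), without control array 2 (0.31, adjusted p = 0.127) and without mutant array 2 (0.23, adjusted p = 0.186), with median centring (adjusted p = 0.054) and without the intensity trend (adjusted p = 0.151). Eif4e3, a further cap-binding protein, had signals of 47.0 and 31.4 in mutants and 61.7 and 53.1 in controls and did not pass (adjusted p = 0.13, limma).

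Among the helicase and scaffold genes of eIF4, 0 of 6 were higher and 1 was lower. The shares of all tested genes were 20.6% and 24.5%. At an unadjusted p under 0.05 (limma) 2 passed, Eif4g3 as higher and Eif4b as lower, against 6681 of all 12469 tested genes. Eif4b, the cofactor that stimulates the helicase, had signals of 1680.1 and 1823 in mutants and 2259 and 2190.2 in controls (-0.35 ± 0.09, SE, adjusted p = 0.0155, limma). Its call was lost without control array 1 (-0.32, adjusted p = 0.0864), without control array 2 (-0.37, adjusted p = 0.0562) without mutant array 1 (-0.29, adjusted p = 0.0654) and without the intensity trend (adjusted p = 0.113). The helicase genes did not pass: Eif4a1 had signals of 5062 and 5551 in mutants and 4972 and 5132 in controls, and Eif4a2 had 2915 and 2978 in mutants and 3212 and 3121 in controls. Eif4g3, a scaffold protein, had signals of 628 and 615 in mutants and 521 and 518 in controls, without overlap (log2 fold change 0.26, adjusted p = 0.0628, limma). Eif4g2, a scaffold relative that does not bind eIF4E, had a log2 fold change of 0.18 (adjusted p = 0.111, limma), and Eif4h, another helicase cofactor, had one of -0.07 (adjusted p = 0.611, limma).

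None of the 4 tested Eif1 genes, which serve start codon scanning or carry related names, passed by its brightest probe set. Across all tested genes, 45.1% were called. An unadjusted p under 0.05 (limma) was reached by 1 of the 4 Eif1 genes, against 6681 of all 12469 tested genes. Eif1ax, the X-linked gene of eIF1A, had signals of 1677 and 1846 in mutants and 1512 and 1677 in controls (adjusted p = 0.275, limma). Eif1b, a close copy of eIF1, had signals of 357 and 322 in mutants and 381 and 385 in controls (adjusted p = 0.243, limma). Eif1ad, a protein with an eIF1A domain, had signals of 435 and 568 in mutants and 639.7 and 615 in controls, and did not pass (log2 fold change -0.34, adjusted p = 0.089, limma). Its second probe set had signals of 214 and 218 in mutants and 538 and 508 in controls and was 2.42-fold lower (adjusted p = 7.71e-05, limma). For this gene the 2 probe sets agreed in direction and not in size.

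Of 4 tested Eif5 genes, 1 was higher and 3 did not pass, beside 20.6% higher and 24.5% lower of all tested genes. Eif5a2, the more narrowly expressed copy of the hypusine-bearing factor eIF5A, had signals of 50.9 and 60.1 in mutants and 33.9 and 27.4 in controls (0.86 ± 0.25, SE, adjusted p = 0.0303, limma). Its call was lost without control array 2 (0.71, adjusted p = 0.12) and without mutant array 2 (0.74, adjusted p = 0.124). Eif5a, the abundant copy, had signals of 7285 and 8419 in mutants and 7229 and 6782 in controls (0.16 ± 0.09, SE, adjusted p = 0.215, limma). The copies thus had different values, and the difference between them was not tested.

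Eif5, which triggers GTP hydrolysis by eIF2, had signals of 2791 and 3058 in mutants and 2461 and 2572 in controls, without overlap, and did not pass by its brightest probe set (0.22 ± 0.09, SE, adjusted p = 0.085, limma). Of its 5 tested probe sets, 3 others were higher, by 0.36 to 0.56. Eif5b, which joins the subunits, had signals of 833 and 954 in mutants and 839.6 and 774 in controls, which overlapped (adjusted p = 0.313, limma). Eif6, which binds free large subunits and keeps them from joining, had signals of 962 and 1075 in mutants and 904 and 849 in controls, without overlap, and did not pass (0.22 ± 0.10, SE, adjusted p = 0.123, limma).

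The authors' deposited table of probe sets that differed by at least 2-fold held 6290 probe sets, of which 13 belonged to 10 member genes. Of these, 12 were Eif probe sets in the authors' deposited table, and 1, the third probe set of Rpl22, was of a ribosomal protein gene. Its fold runs as control over mutant. By that fold, the authors' deposited table gave 2.69 for Rpl22, 3.17 for Eif2ak4, 2.95 for Eif1ad, and 2.11, 3.32 and 3.38 for the 3 probe sets of Eif2ak2, all lower in mutants. The authors' deposited table gave 0.437 for Eif2b4, 0.408 for Eif2b2 and 0.488 for Eif2b3, all higher in mutants, and also listed Eif5a2 (2 probe sets), Eif4e and Eif2s2 as higher. All 13 had the same direction in the deposited signals, which are from the same arrays.

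Other genes of translation were counted in the same way, beside 20.6% higher and 24.5% lower of all tested genes. Of 7 tested ribosome genes outside the symbol rule, such as the stalk proteins, 0 were higher and 0 were lower (limma, 0 also at an unadjusted p under 0.05), with a median log2 fold change of -0.11, and 1 was lower without mutant array 2. Their largest moderated statistics were those of Rps3a1 (-0.19, adjusted p = 0.142, limma) and Rpl22l1. Of 49 ribosome biogenesis genes, 2 were higher and 1 was lower, with a median of 0.05. The higher count was 1 without control array 2 or mutant array 2, and the lower count was 0 without control array 1 or mutant array 1, 2 without control array 2 and 3 without mutant array 2. Polr1e, a subunit of RNA polymerase I, had signals of 151 and 145 in mutants and 97.1 and 72.4 in controls (0.82 ± 0.18, SE, adjusted p = 0.00962, limma). Tcof1, the treacle protein that serves rDNA transcription, had signals of 176 and 214 in mutants and 328 and 268 in controls (-0.61 ± 0.15, SE, adjusted p = 0.0165, limma). The call of Tcof1 was lost without control array 1 (-0.46, adjusted p = 0.0999) and without mutant array 1 (-0.47, adjusted p = 0.0698).

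Of 13 elongation and termination genes, 2 were higher and 1 was lower, with a median of 0.20. The higher count was 1 without control array 1 and 0 without control array 2 or mutant array 2. Eef2k, the kinase that inactivates elongation factor eEF2, had signals of 101 and 111 in mutants and 1358 and 1465 in controls. It was 13.3-fold lower (-3.74 ± 0.11, SE, adjusted p = 5.50e-07, limma), the widest difference in the list. Hbs1l, a ribosome rescue factor, had signals of 563 and 776 in mutants and 446 and 419 in controls (0.61 ± 0.15, SE, adjusted p = 0.0158, limma). Its direction turned when probe sets that can read several transcripts were left out (-0.52, adjusted p = 0.0262), and its call was lost without control array 2 (0.57, adjusted p = 0.0669) and without mutant array 2 (0.38, adjusted p = 0.0577).

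Of 18 genes of the S6 kinases and the TOR pathway, 3 were higher and 3 were lower, with a median of 0.09. The lower count was 0 without control array 2 and 1 without any other single array. Mknk1, a kinase that phosphorylates eIF4E, had signals of 500.4 and 509 in mutants and 141 and 139.9 in controls (1.84 ± 0.11, SE, adjusted p = 1.41e-05, limma). Rictor, a subunit of TOR complex 2, had signals of 394 and 368 in mutants and 257 and 235 in controls (0.63 ± 0.12, SE, adjusted p = 0.00381, limma). Both were well apart from the controls. Mtor itself, named after its value was seen, did not pass (0.26, adjusted p = 0.108, limma).

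Of 10 genes for poly(A)-binding proteins and other partners of the mRNA ends, 2 were higher and 1 was lower, with a median of 0.03. Cyfip2, a relative of an eIF4E-binding protein, had signals of 258 and 225 in mutants and 75.8 and 96.1 in controls (1.5 ± 0.17, SE, adjusted p = 0.000339, limma). Pabpc4, a poly(A)-binding protein, had signals of 753 and 909 in mutants and 491 and 463 in controls (0.80 ± 0.12, SE, adjusted p = 0.00137, limma). Of 20 genes of the cytosolic aminoacyl-tRNA synthetases, which charge tRNAs, 4 were higher and 1 was lower, with a median of 0.10. The higher count was 2 without control array 2, and the lower count was 0 without control array 1, control array 2 or mutant array 1. Sars, the seryl-tRNA synthetase, had signals of 746 and 881 in mutants and 508 and 493 in controls (0.70 ± 0.11, SE, adjusted p = 0.00205, limma). Gars, the glycyl-tRNA synthetase, had signals of 1568 and 1431 in mutants and 1023 and 1064 in controls (0.52 ± 0.09, SE, adjusted p = 0.00318, limma).

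**Figure D5:**
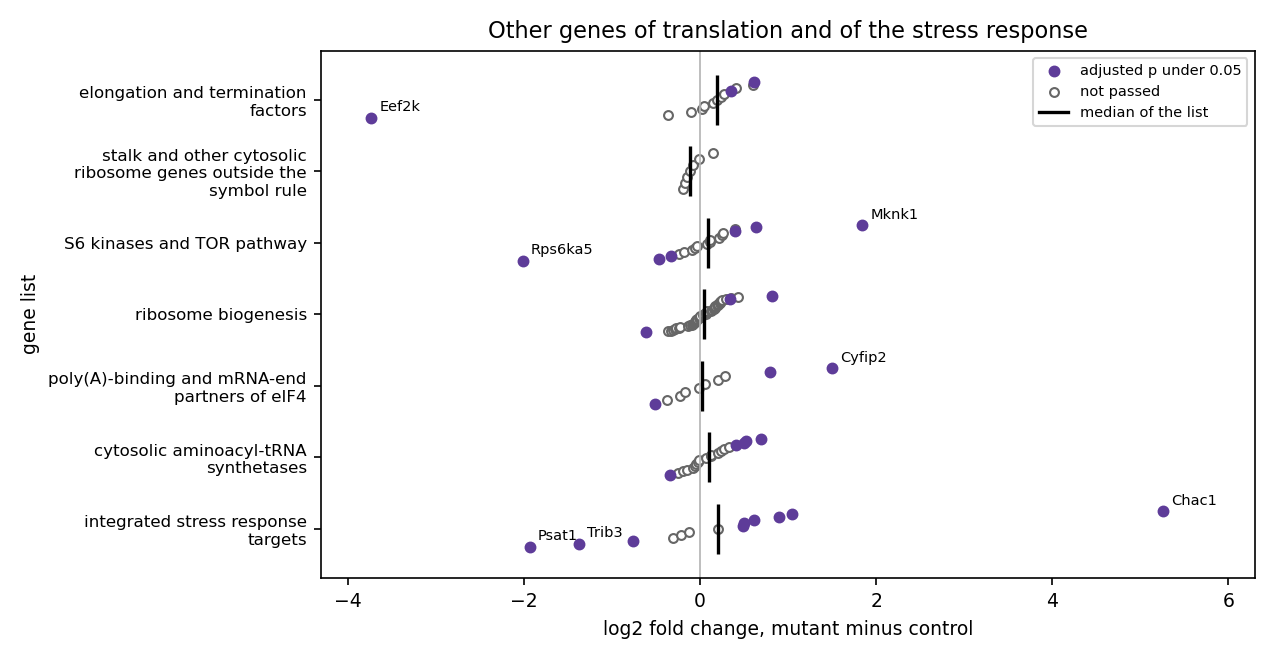
Log2 fold change (mutant minus control) of the tested genes of 7 lists around the ribosomal protein and Eif genes. Filled points passed an adjusted p of 0.05, open points did not, and bars are medians of the lists. The medians lie between -0.11 and 0.21, and Eef2k stands at -3.74. Rps6ka5 and Trib3 were at background on both mutant arrays and Chac1 on 1 control array, so their points are fitted values and no exact measure of size.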

How the data were processed

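The members and gene lists were chosen with earlier results of these data known. Per the submitters' processing notes, the authors used GCOS and MAS5, whose versions are not given in the sources used here. Since the deposited intensity values had been scaled already, no further normalization was applied. The authors' deposited table gives a fold as the ratio of control over mutant, made per its file headers from GCRMA values and filtered at 2-fold.

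Array controls (64 of 45101 probe sets) were left out. Names came from the platform annotation, in which 34945 probe sets name 1 gene, updated to RefSeq for 34741, and 115 probe sets that name a member with other genes were not used. The 2 groups were compared on log2 signals with limma 3.58.1 in R 4.3.3 (lmFit, then eBayes with its trend option). Tests were two-sided, p-values were adjusted by Benjamini-Hochberg over the 28434 tested probe sets, and 0.05 was the threshold; each adjusted p comes from a limma fit. Errors of fold changes are SEs, and precision is limited by the number of arrays. With 2 arrays against 2, the smallest two-sided p of an exact permutation test is 0.333, so calls rest on limma's pooling of spread. Per the labels each array is a separate embryo.

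Named were, per role, the 3 largest called rises and falls, every called gene past 2-fold, a fixed set of factors, genes with opposite calls, and the 2 genes at most in a list whose moderated t was greatest; other names are examples chosen after their values were seen. On simulated data with 28434 probe sets, those with a mean log2 signal above 5, which include every probe set standing for a member, gave 64 of 74 probe sets changed 2-fold and 80 of 81 changed 4-fold, with 5.26% false calls; at or below 5, 68.4% of calls were false. The simulation changed far fewer probe sets than were called in the data, and none by less than 2-fold. Its spread was set by signal, as the trend option assumes. It therefore cannot tell how often calls below 2-fold, or calls lost without the trend, are false. Alternatives were 3 other scalings, other filters, an offset of 16, no intensity trend, a replicate block, averaged probe sets, fewer probe sets, longer symbols and leaving out each array. Same-numbered arrays did not deviate together (r = 0.01). No sequence of proteins was used here.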

Additional observations from a re-analysis of the deposited data

How the results depend on the processing

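Directions were mostly kept, while most calls were lost under at least 1 alternative, and not only those near the threshold. Of 23 called member genes, 7 kept their call under all alternatives run, 16 lost it under at least 1, and 0 reversed; 11 lost it when 1 array was left out, and 17 of 61 uncalled genes passed under at least 1. Without the intensity trend, 0 ribosomal protein genes were higher and 0 lower, and 7 Eif genes were higher and 2 lower; for probe sets these were 0 and 1, and 16 and 7. Higher ribosomal protein genes numbered 2 with quantile scaling, cyclic loess or averaged probe sets, and higher probe sets 5 with cyclic loess. Lower ribosomal protein genes numbered 3 with median centring and 1 with no filter on dim probe sets (2 probe sets). Without probe sets ending in _x_at, _s_at or _a_at, 2 ribosomal protein genes were lower, 1 ribosomal protein probe set was higher and 2 were lower, 16 Eif probe sets were higher, and Eif2ak4 did not pass (-0.35, adjusted p = 0.547, limma). Leaving out 1 array gave 1 to 2 higher and 1 to 6 lower ribosomal protein genes, 8 to 12 higher and 2 to 5 lower Eif genes, 1 to 3 higher and 3 to 11 lower ribosomal protein probe sets, and 17 to 25 higher and 6 to 12 lower Eif probe sets. The causes were not tested, and the share of all tested genes called under each alternative is not given here. With the replicate block, 2 ribosomal protein genes and 2 ribosome biogenesis genes were lower, and no other count of genes moved by over 1.5 times; the sample numbers are not known to pair the arrays. Reversed values were those of Eif3h with averaged probe sets (0.86) and of Hbs1l without the probe sets named above (-0.52). Counts of the other lists moved too, from 0 to 4 lower genes of the TOR pathway and from 1 to 6 higher synthetase genes over all alternatives. The median log2 fold change ran from -0.15 to 0.01 for ribosomal protein genes and from 0.07 to 0.24 for Eif genes. Background correction could not be run again from the deposited signals, and whether dim or very bright probe sets were read in proportion was not tested.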
